A study of Rattus norvegicus with 12 samples.

Results

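The let-7 and miR-98 microRNA family was followed in rat liver after caffeine, dextromethorphan or both. The members are the rows of the deposited table whose gene name starts with Mirlet7 or is Mir98, which gave 10 of 444 rows. Of these, 9 were above 0 in all 12 libraries and passed the filter on low values, and 1, Mirlet7f-1os, was at 0 throughout. The rule uses names only and no measured value. All rats were male Sprague-Dawley rats (Jcl:SD), an outbred stock, 7 weeks old when dosing by mouth began, with 5 rats per group in the study and 3 libraries per group deposited. For 5 days the Control group received sterile distilled water as vehicle, CAF received caffeine at 120 mg/kg, DEX received dextromethorphan hydrobromide monohydrate at 100 mg/kg, and CAF+DEX received both at these doses. Liver was taken 1 h after the last dose. Whole liver RNA was used, so fewer cells of a type and less RNA per cell cannot be told apart. Nothing in the labels links a library to its animal, so p-values measure the spread between these libraries only.

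The let-7 microRNAs were found as timing genes of worm development and are conserved across animals. Their precursors are held back by the RNA-binding protein LIN28 in embryonic and stem cells, and the mature forms build up as cells differentiate. They act through a shared seed, the bases near the 5′ end that pair with target messages, and their known targets include RAS, MYC and HMGA2 transcripts and parts of the insulin pathway. In adult liver they are among the abundant microRNAs and are known for restraining growth genes.

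All 9 rows above 0 matched a RefSeq gene (build GRCr8) by symbol and strand, and they encode 8 distinct mature 5p sequences. They are shown because every one has the same seed, GAGGUAG, set in capitals at bases 2 to 8, so that the members differ only outside it.
let-7a-5p: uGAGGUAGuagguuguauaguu
let-7b-5p: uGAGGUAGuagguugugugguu
let-7c-5p: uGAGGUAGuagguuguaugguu
let-7d-5p: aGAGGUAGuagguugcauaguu
let-7f-5p: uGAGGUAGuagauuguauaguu
let-7g-5p: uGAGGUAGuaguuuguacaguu
let-7i-5p: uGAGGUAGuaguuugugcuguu
miR-98-5p: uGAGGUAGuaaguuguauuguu

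Of 692 distinct mature sequences in the RefSeq table, 9 (1.3%) hold this seed, and the ninth is let-7e-5p, not analysed here. Positions below count from 1 at the 5′ end, with the base of let-7a first. From let-7a, let-7c differs by A19G, let-7f by G12A, let-7b by A17G and A19G, let-7d by U1A and U16C, let-7g by G12U and U18C, and miR-98 by G11A and A19U. Let-7i is the farthest from let-7a with G12U, A17G, U18C and A19U. Among the 28 pairs of mature forms, 3 differ by 1 base: let-7a and let-7c, let-7a and let-7f, and let-7b and let-7c. The largest distance, 6 bases, lies between let-7d and let-7i.

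Mirlet7c1 and Mirlet7c2 are separate genes with an identical mature 5p form, so a read of that form alone has no single place. Their RefSeq hairpins are shown with the shared 5p form in capitals and the differing flanks in lower case.
Mirlet7c1: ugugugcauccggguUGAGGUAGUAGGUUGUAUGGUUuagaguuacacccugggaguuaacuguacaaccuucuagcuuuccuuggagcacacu
Mirlet7c2: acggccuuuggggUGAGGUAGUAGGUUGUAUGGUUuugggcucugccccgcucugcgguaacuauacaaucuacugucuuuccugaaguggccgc
Mirlet7c2 also shares its 3p form, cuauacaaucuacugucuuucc, with Mirlet7a1. The rows count a whole annotated hairpin, and the arms were not told apart. Reads had been split among places in steps of 0.01 read. Part reads were present in all 12 libraries for Mirlet7f2, Mirlet7a1, Mirlet7c2, Mirlet7b, Mirlet7c1 and Mirlet7d. They were present in 10 libraries for Mirlet7g, 9 for Mirlet7i and 8 for Mir98. RefSeq has further genes for let-7a (Mirlet7a-2) and let-7f, not analysed here, so Mirlet7a1 and Mirlet7f2 need not hold all reads of their mature forms.

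The rows lie at 6 places on build rn7. Mirlet7c2 (ENSRNOG00000035461, chromosome 7, 116803771 to 116803865, plus strand) and Mirlet7b (ENSRNOG00000035636, chromosome 7, 116804186 to 116804270, plus) are 320 bases apart. Mirlet7a1 (ENSRNOG00000035632, chromosome 17, 16113768 to 16113867, plus) and Mirlet7d (ENSRNOG00000035594, chromosome 17, 16115893 to 16115990, plus) are 2025 bases apart. Mirlet7f2 (ENSRNOG00000035464, chromosome X, 20980632 to 20980714, plus) and Mir98 (ENSRNOG00000035656, chromosome X, 20981235 to 20981342, plus) are 520 bases apart. Mirlet7c1 (ENSRNOG00000035500, chromosome 11, 16201158 to 16201265, plus) follows Mir99a by 634 bases. Mirlet7g (ENSRNOG00000050242, chromosome 8, 106822280 to 106822388, plus) and Mirlet7i (ENSRNOG00000035642, chromosome 7, 58642480 to 58642571, minus) have no other listed row within 10000 bases. The remaining row, Mirlet7f-1os (ENSRNOG00000035538, chromosome 17, 16114130 to 16114226), lies between Mirlet7a1 and Mirlet7d on the minus strand, while RefSeq gives this symbol to the plus strand gene that encodes let-7f-5p. At 0 reads in every library, a count of 0 allows at most 0.000105% of reads (3 reads in the smallest library, counting error only). Mir3596a and Mir3596c, also on the minus strand and chosen after their values were seen, were at 0 in every library too. Exon, intron and host gene positions were not analysed here.

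Recovered depth was 2863572 to 3418568 reads per library over the listed features. The 6 hepatocyte microRNAs on the marker list summed to 23.6 to 26.4% of reads in every library, led by Mir192 at 14.1 to 16.4%. Of the 5 muscle markers listed, the 2 present in the table summed to at most 0.00108% of reads. That list does not cover all muscle microRNAs. Mir1b and Mir499a, not on it and looked up after values were seen, had means of 0.0233 and 0.0160% of reads. For the members, counting error at the fewest reads ran from 0.246% (Mirlet7f2, 165147 reads) to 3.62% (Mir98, 763 reads). Within-group SDs were larger, 0.05 to 0.13 on the log2 scale, against a median of 0.10 over 108 tested features with at least 500 mean reads.

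Together the family took 15.5 to 18.3% of all reads beside 14.1 to 16.4% for Mir192, an abundant hepatocyte microRNA. In Control the family share was 15.7, 16.7 and 17.0% in libraries 1, 3 and 4. In CAF it was 15.5, 16.5 and 16.9% in libraries 1, 2 and 5, and in CAF+DEX it was 17.2, 18.2 and 15.7% in libraries 1, 2 and 5. In DEX it was 17.2, 17.6 and 18.3% in libraries 1, 2 and 4, so that the DEX libraries lay above all Control and all CAF libraries, and CAF+DEX spanned nearly the whole range. Group means were 16.5% ± 0.69 (SD, n = 3) in Control, 16.3% ± 0.72 in CAF, 17.7% ± 0.56 in DEX and 17.0% ± 1.3 in CAF+DEX. These sums are a description and were not tested.

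The Mir192 share moved the other way. The 4 libraries with the smallest family share, CAF 1, CAF+DEX 5, Control 1 and CAF 2, were the 4 with the largest Mir192 share, 15.9 to 16.4%. In DEX, Mir192 stood at 14.3, 14.8 and 14.3% of reads, below all 3 Control libraries at 15.1 to 16.4%. The hepatocyte list, led by Mir192, summed to 24.8 to 26.4% of reads in Control and 23.8 to 24.6% in DEX. Its 6 microRNAs did not all fall. Of them, 3 had higher means in DEX against Control, with a median log2 difference of 0.003 and 0 called. The family share and the Mir192 share are parts of one total, so they are not independent of each other. With Mir192 left out of the totals, a setting chosen after seeing the data, the 9 members kept their direction in DEX against Control and their median log2 difference was 0.10 in place of 0.12. The part of Mir192 in the family's difference was otherwise not tested.

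**Figure D1:**
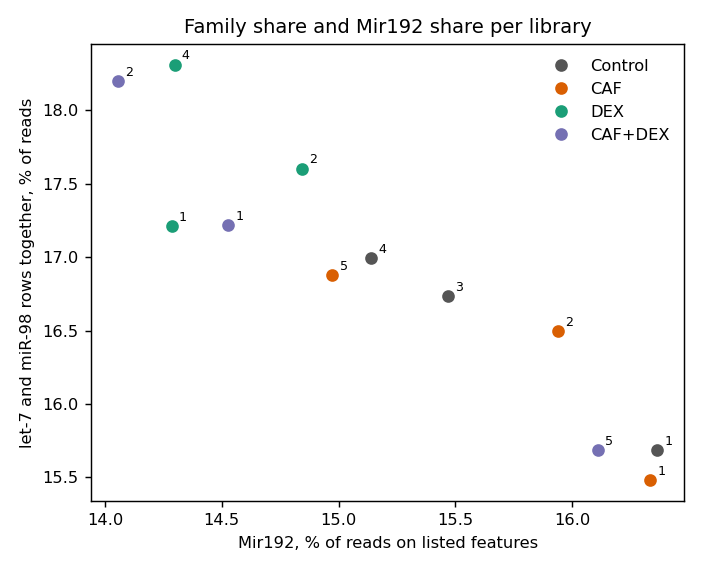
Share of reads taken by the let-7 and miR-98 rows together (y axis, %) against the share taken by Mir192 (x axis, %) in each of 12 libraries, coloured by group and numbered as in the deposited table. The 3 DEX libraries lie at 17.2 to 18.3% family share, above the Control libraries at 15.7 to 17.0%.

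Levels within the family spanned 259-fold in mean FPKM (reads scaled for the annotated hairpin length and the library total). Mirlet7f2, of a form known in endothelial growth, was highest with 673213 to 770247 FPKM and ranked 3 among all features by mean FPKM. It alone took 33.1 to 37.3% of the family's reads. Mirlet7a1, whose form represses RAS transcripts, came next with 248111 to 310818 FPKM. Then followed Mirlet7c2 with 163511 to 230056 FPKM and Mirlet7b with 163495 to 225398 FPKM. Reads of let-7c are split over Mirlet7c2 and Mirlet7c1, which were not summed here. The order is thus of rows and not of mature forms. Mirlet7c1 with 125557 to 176635 FPKM, Mirlet7g with 131739 to 157361 FPKM and Mirlet7i with 118999.9 to 145063 FPKM lay close together. Mirlet7d, whose form represses HMGA2, was about an order of magnitude below Mirlet7a1 at 26752 to 33397 FPKM, although it lies 2025 bases from it. Mir98 was lowest at 2374 to 3189 FPKM, although it lies 520 bases from the highest row.

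Most steps of this order held in every library. Mirlet7f2 stood above Mirlet7a1 in 12 of 12 libraries by 2.59 ± 0.12 times in FPKM (SD over 12 libraries). Mirlet7c2 stood above Mirlet7b in 11 of 12 libraries, by 1.02 ± 0.017 times, and Mirlet7c1 above Mirlet7g in 7 of 12, so these 2 pairs of neighbours did not differ beyond their spread. All other neighbours kept their order in 12 of 12 libraries. Counted as reads without length, the ranks were the same, but Mirlet7b and Mirlet7c1, now higher in 9 of 12, were no longer separated, and Mirlet7c2 was above Mirlet7b in 12 of 12. The annotated lengths, 85 bases for Mirlet7b, 95 for Mirlet7c2 and 108 for Mirlet7c1, thus bear on how far these 3 rows are separated and not on their ranks. Read counts of Mirlet7c1 were 0.873 ± 0.0041 times those of Mirlet7c2 (range 0.867 to 0.877).

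**Figure D2:**
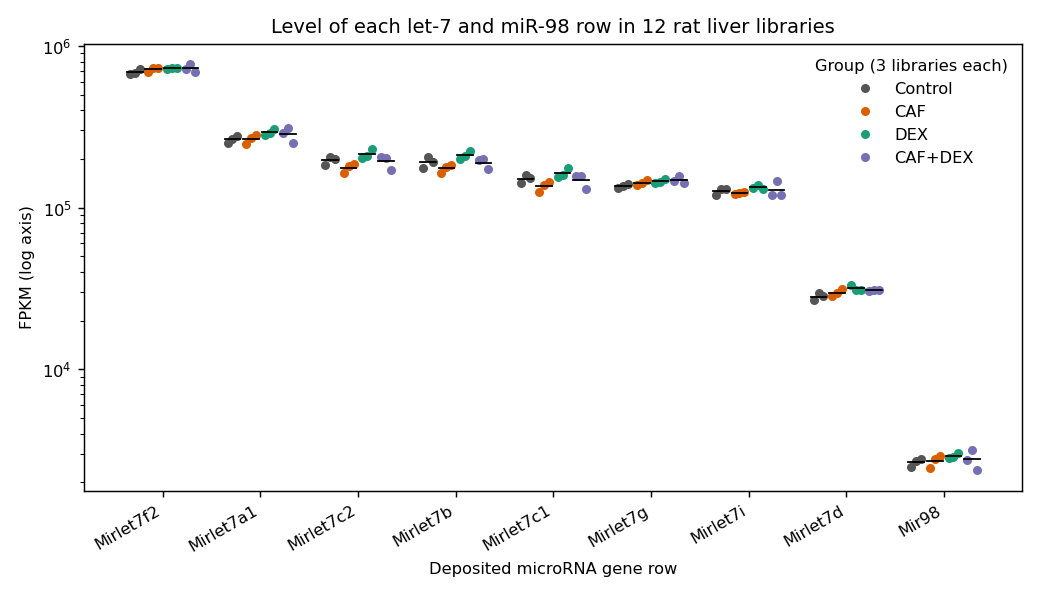
FPKM on a log axis of the 9 rows above 0, in order of mean level, with 3 libraries per group as points and group means as bars. Levels run from 770247 FPKM for Mirlet7f2 to 2374 FPKM for Mir98, and the differences between members are far larger than those between groups.

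In dextromethorphan alone against vehicle the members' means all lay on one side of Control, by less than the test could call. All 9 members had a higher mean in DEX, by 0.07 to 0.18 on the log2 scale with a median of 0.12, while the median over all 293 features tested was 0.00. No member passed the threshold of an adjusted p of 0.05, and no feature of the table did (0%). With an unadjusted p under 0.05 there was 1 member, Mirlet7d, against 13 features (4.44%). The count of members was 0 without Control library 1 or with quantile normalization, 2 without Control library 3 or CAF+DEX library 5, and 3 with only the libraries compared in the fit. A mean above 0 was found for 51.9% of all features. The members share reads, totals and the Control libraries, so the 9 are not separate pieces of evidence.

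Mirlet7d stood at 26752, 29429.9 and 28250.4 FPKM in Control libraries 1, 3 and 4, and at 33397, 31029.8 and 31101 FPKM in DEX libraries 1, 2 and 4. Every DEX library was above every Control library, with DEX library 1 the highest of all 12. The log2 difference was 0.18 (SE 0.06, 95% interval 0.05 to 0.31, limma, Benjamini-Hochberg adjusted p = 0.571).

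Mirlet7a1 stood at 249900.2, 265568 and 277569 FPKM in Control and at 281106, 290230.2 and 305591 FPKM in DEX. The groups did not overlap, but the gap between the highest Control and the lowest DEX library was small beside the spread within each group. The log2 difference was 0.15 (SE 0.08, interval -0.02 to 0.31, limma adjusted p = 0.841).

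Mirlet7f2 stood at 673213, 683534 and 722587 FPKM in Control and at 723298, 729119.8 and 730097 FPKM in DEX. The DEX libraries were tightly grouped just above the highest Control library, and the log2 difference was 0.07 (SE 0.05, interval -0.05 to 0.19). Mirlet7g, of a form known to target collagen and BCL-xL transcripts, stood at 131739, 135176 and 140395 FPKM in Control and at 141803, 144329 and 151139.9 FPKM in DEX. Its groups did not overlap either, with a log2 difference of 0.10 (SE 0.06, interval -0.02 to 0.22). Mir98 had 2471, 2709 and 2803 FPKM in Control and 2820.2, 2887 and 3033 FPKM in DEX, a log2 difference of 0.13 (SE 0.11, interval -0.10 to 0.37).

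In these 5 members all DEX libraries lay above all Control libraries, a separation found in this direction in 20 of 293 features (6.83%). In the other 4, Mirlet7b, Mirlet7c2, Mirlet7c1 and Mirlet7i, the groups overlapped, with log2 differences of 0.14 (SE 0.08), 0.12 (SE 0.08), 0.11 (SE 0.08) and 0.08 (SE 0.07). Control library 1 was low, with 0 of 9 members above their Control mean and a median of -0.09. Without it the family's median in DEX against Control was 0.08, without DEX library 4 it was 0.09, and with quantile normalization it was 0.08 with Mirlet7g at 0.00. Leukocyte markers moved little here, with 1 of 6 higher and a median of -0.07, and summed to 2.63 to 2.99% of reads in Control and 2.59 to 2.97% in DEX. Their part in the family's difference was not tested.

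**Figure D3:**
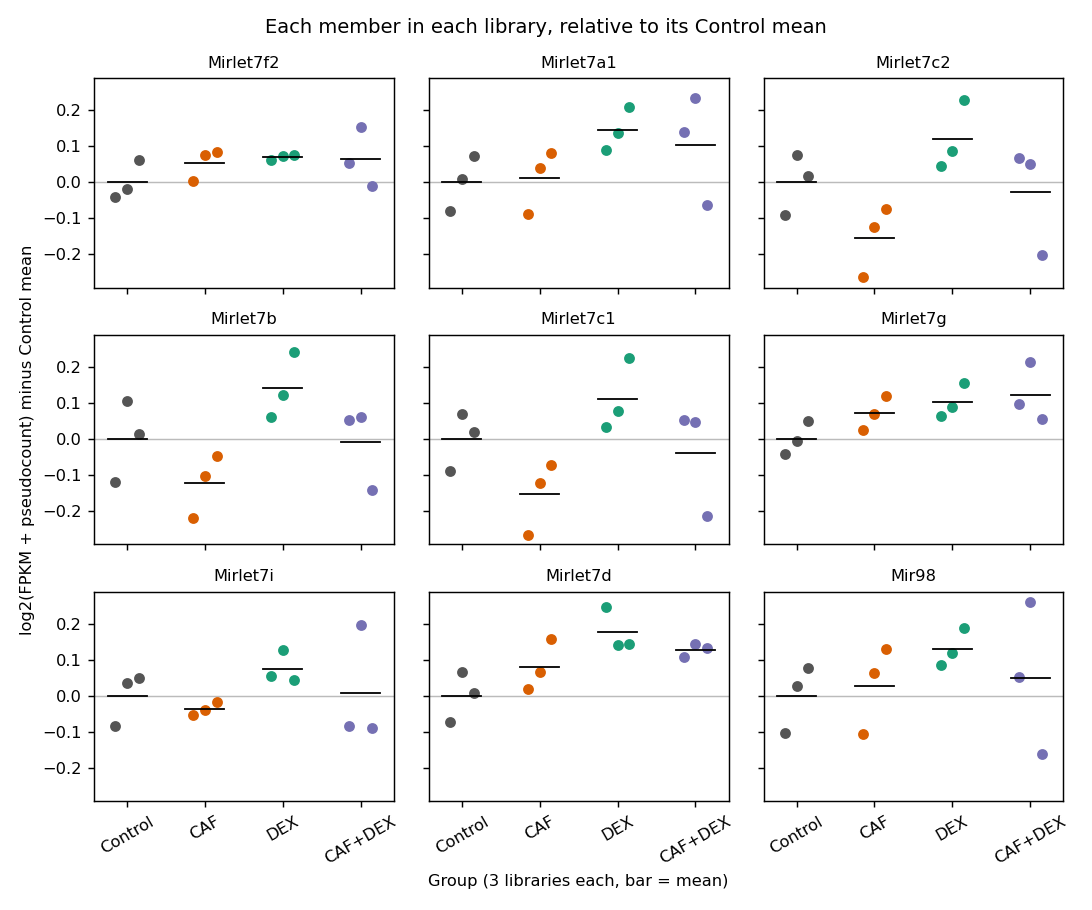
Each member's log2(FPKM + 3.8) in each library minus its Control mean (y axis), by group, with bars at group means of 3 libraries. All 9 members lie above 0 in each DEX library. In CAF, Mirlet7b, Mirlet7c1, Mirlet7c2 and Mirlet7i lie below 0 in every library, each with values that overlap Control.

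In caffeine alone against vehicle the members' means lay on both sides of Control, and none passed the test. Mirlet7c2, Mirlet7c1 and Mirlet7b had lower means in CAF, at -0.15 (SE 0.08), -0.15 (SE 0.08) and -0.12 (SE 0.08), while Mirlet7d, Mirlet7g and Mirlet7f2 had higher means, at 0.08 (SE 0.06), 0.07 (SE 0.06) and 0.05 (SE 0.05). Of 9 members, 5 had a higher and 4 a lower mean (50.9% of all features were higher), with a median of 0.01 beside 0.00 over all features. No member passed (limma, smallest Benjamini-Hochberg adjusted p = 0.505) or had an unadjusted p under 0.05 (38 features, 13%), where 2 of 293 features passed (0.683%). There were 2 members with an unadjusted p under 0.05 without CAF+DEX library 5 and 1 with quantile normalization. The sign of Mirlet7a1, at 0.01, turned without Control library 1, CAF library 2 or CAF library 5, and that of Mir98, at 0.03, without Control library 1 or CAF library 5. Mirlet7f2 turned with quantile normalization.

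Let-7c is known as a microRNA that agonists of the lipid sensor PPAR alpha repress in mouse liver. Mirlet7c2 stood at 184251, 206829.6 and 198682 FPKM in Control and at 163511, 180074 and 186300.2 FPKM in CAF, where libraries 1 and 2 were below all Control libraries and library 5 was not. Its 95% interval ran from -0.34 to 0.03. Mirlet7b, which lies beside it, stood at 175459.5, 205033 and 192331 FPKM in Control and at 163495, 177548 and 184398 FPKM in CAF, with an interval from -0.29 to 0.05. In both, CAF library 1 was the lowest of all 12. Mirlet7c1 followed Mirlet7c2, with which it shares reads, from 142102, 158564 and 153299 FPKM in Control to 125557, 138955 and 143762 FPKM in CAF.

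Leukocyte microRNAs differed in the same comparison, with 0 of 6 higher, a median log2 difference of -0.50 and 2 called, and summed to 1.75 to 2.15% of reads in CAF against 2.63 to 2.99% in Control. The 3 erythroid microRNAs measured had lower means, with none called. Their part in the difference of the let-7b and let-7c rows was not tested. Mirlet7i, whose form regulates the receptor TLR4 in biliary cells, had 119321, 129771 and 131054 FPKM in Control and 121969, 123302 and 125144 FPKM in CAF. The CAF values lay inside the Control range, with a log2 difference of -0.04 (SE 0.07).

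Both drugs against vehicle gave a wide spread. In CAF+DEX, library 2 had all 9 members above the Control mean with a median of 0.15, while library 5 had 2 of 9 above it and a median of -0.09. The median log2 difference was 0.05 over the 9 members, with 6 higher (47.1% of all features were higher), and it was -0.04 without CAF+DEX library 2 and 0.10 without CAF+DEX library 5. No member passed, and no feature did (0%). Mirlet7d and Mirlet7g had an unadjusted p under 0.05, against 30 features (10.2%). No member did with any 1 of these left out: Control 1, CAF 2, DEX 2, DEX 4, CAF+DEX 1 and CAF+DEX 2. The same held with Mir192 left out of the totals.

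In Mirlet7d the 3 CAF+DEX libraries lay close together, at 30322, 31079 and 30845 FPKM, all above Control. The log2 difference was 0.13 (SE 0.06, interval 0.00 to 0.26, limma adjusted p = 0.48). Mirlet7g had 145299, 157361 and 140986 FPKM, also all above Control, with a log2 difference of 0.12 (SE 0.06, interval 0.00 to 0.24, limma adjusted p = 0.48). These were the only 2 members whose CAF+DEX libraries lay all above Control (7.17% of features). Mirlet7b, Mirlet7c2 and Mirlet7c1 stood near the Control level, at -0.01, -0.03 and -0.04, each with library 5 low. Their signs were not stable. All 3 turned positive without CAF+DEX library 5, Mirlet7b and Mirlet7c2 also without Control library 3, and Mirlet7b also with median centring, while with quantile normalization it was at 0.00. Over all settings run, the count of higher members ranged from 4 to 9, with Mirlet7i turning under quantile normalization, with Mir192 left out of the totals and without Control library 1 or CAF+DEX library 2, Mirlet7f2 under quantile normalization, and Mir98 without Control library 1 or CAF+DEX library 2.

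**Figure D4:**
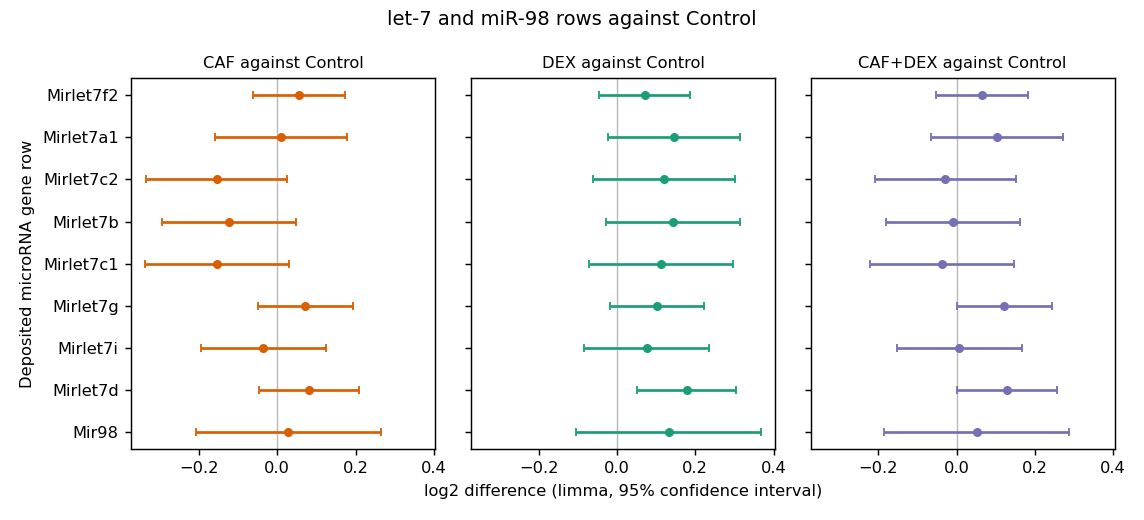
Log2 differences of each member against Control in CAF, DEX and CAF+DEX with 95% confidence intervals from limma (x axis), n = 3 libraries per group. In DEX all 9 estimates are above 0 and the interval of Mirlet7d runs from 0.05 to 0.31, and no member passed after adjustment in any of the 3 comparisons, which share the Control libraries.

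Dextromethorphan added to caffeine was set against caffeine alone. No library of this comparison enters DEX against Control. All 9 members again had the higher mean, by 0.01 to 0.13 with a median of 0.05 (49.1% of all features were higher). None passed (0% of features) and none had an unadjusted p under 0.05 (limma, 15 of 293 features, 5.12%). Mirlet7c2, Mirlet7c1 and Mirlet7b had the largest differences, 0.13 (SE 0.08), 0.12 (SE 0.08) and 0.11 (SE 0.08). Without CAF+DEX library 5 the median was 0.13 and 4 members had an unadjusted p under 0.05. The count of 9 fell to 6 without CAF+DEX library 2 or with quantile normalization, to 7 without CAF library 1 and to 8 with Mir192 left out of the totals, where the median ranged down to 0.02.

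Pooled over caffeine, the 6 libraries with dextromethorphan had higher means than the 6 without in all 9 members (51.2% of all features), with a median of 0.11. Each pooled estimate is the mean of those in DEX against Control and CAF+DEX against CAF. All 9 members were higher in both, so the count of 9 is no further evidence. Mirlet7d had 0.11 (SE 0.04, interval 0.02 to 0.20, limma adjusted p = 0.521) and Mirlet7b 0.13 (SE 0.06, interval 0.01 to 0.25, limma adjusted p = 0.64), the 2 members with an unadjusted p under 0.05, against 22 features (7.51%). Leaving out 1 library moved that count between 0 (Control 1 left out) and 6 (CAF+DEX 5 left out). It was 4 with CAF 5 or DEX 1 left out, 3 with Control 3 left out, and 1 with any of CAF 1, CAF 2, DEX 2, DEX 4, CAF+DEX 1 and CAF+DEX 2 left out. No feature passed (0%). Under quantile normalization 7 of 9 were higher, with Mirlet7i at -0.02 and Mirlet7f2 at 0.00, and the median was 0.05.

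Caffeine added to dextromethorphan was set against dextromethorphan alone, which uses none of the libraries in CAF against Control. Of the members, 8 had lower means (54.3% of all features were lower), and Mirlet7g at 0.02 was the exception. Mirlet7f2, at -0.01, turned with median centring, with Mir192 left out of the totals and without CAF+DEX library 1. Without CAF+DEX library 5, Mirlet7a1, Mirlet7f2 and Mir98 turned and 5 members had lower means. Without CAF+DEX library 2, Mirlet7g turned and all 9 had lower means. Mirlet7b stood at 197822, 198786 and 172554 FPKM in CAF+DEX and at 198861, 207599.7 and 225398 FPKM in DEX, so that all CAF+DEX libraries lay below all DEX libraries, though the closest were nearly equal. Such a separation was found in 26 of 293 features (8.87%). The log2 difference of Mirlet7b was -0.15 (SE 0.08, interval -0.32 to 0.02, limma adjusted p = 0.6), and Mirlet7c2 and Mirlet7c1 had -0.15 (SE 0.08) each with overlapping groups. No feature passed (0%), and none of the members had an unadjusted p under 0.05 (limma, 23 features, 7.85%), with 1 without CAF+DEX library 2 and 2 with quantile normalization. The family's median of -0.07 became -0.16 without CAF+DEX library 2 and -0.02 without CAF+DEX library 5.

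Pooled over dextromethorphan, the let-7b and let-7c rows again had the lowest estimates for caffeine, and none passed after adjustment. Each pooled estimate is the mean of those in CAF against Control and CAF+DEX against DEX, where these rows were lowest too. Their place here is thus no further evidence. Mirlet7c1, Mirlet7c2 and Mirlet7b had -0.15 (SE 0.06), -0.15 (SE 0.06) and -0.14 (SE 0.06) between the 6 libraries with caffeine and the 6 without, and these 3 had an unadjusted p under 0.05, against 42 features (14.3%). No member had one with Control 3, CAF 1, DEX 4 or CAF+DEX 5 left out, and the smallest was then 0.0582, 0.0608, 0.0658 and 0.0547 (limma, unadjusted). The count was 2 without Control library 4 or with median centring, and 4 without CAF+DEX library 2 or with quantile normalization. Summing copies joined Mirlet7a1 to the 2 let-7c rows, and 1 of 7 features then had an unadjusted p under 0.05. Mirlet7c1 and Mirlet7c2 share reads, so the 3 rows are not separate pieces of evidence. The limma adjusted p was 0.253 for each, and 2 of 293 features passed (0.683%), neither a member. The other 6 members lay between -0.05 (Mirlet7i) and 0.05 (Mirlet7g), with intervals that included 0.

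Ratios between members do not depend on the library totals. The ratio of Mirlet7a1 to Mirlet7c2 reads was 1.43, 1.35 and 1.47 in Control and 1.46, 1.47 and 1.40 in DEX. It was 1.60, 1.59 and 1.58 in CAF and 1.49, 1.61 and 1.56 in CAF+DEX. All 6 libraries with caffeine, at 1.49 to 1.61, thus lay above all 6 without, at 1.35 to 1.47, with means of 1.57 ± 0.044 and 1.43 ± 0.047 (SD, n = 6).

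The ratios of Mirlet7a1 to Mirlet7b (1.72 to 1.84 with caffeine, 1.52 to 1.70 without) and to Mirlet7c1 (1.72 to 1.84 and 1.55 to 1.68) were separated too. These 3 of the 36 pairs of members were separated by caffeine and 0 of 36 by dextromethorphan. Among all 5778 pairs of features with at least 500 mean reads, 262 (4.53%) were separated by caffeine in either direction and 22 (0.381%) by dextromethorphan. The 3 pairs were picked out after their values were seen and all involve Mirlet7a1, so no test was made. Let-7a differs from let-7c by A19G and from let-7b by A17G and A19G only, and how reads were assigned between such close forms was not tested. The ratio of Mirlet7a1 to Mirlet7f2, also a pair that differs by 1 base, was not separated.

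**Figure D5:**
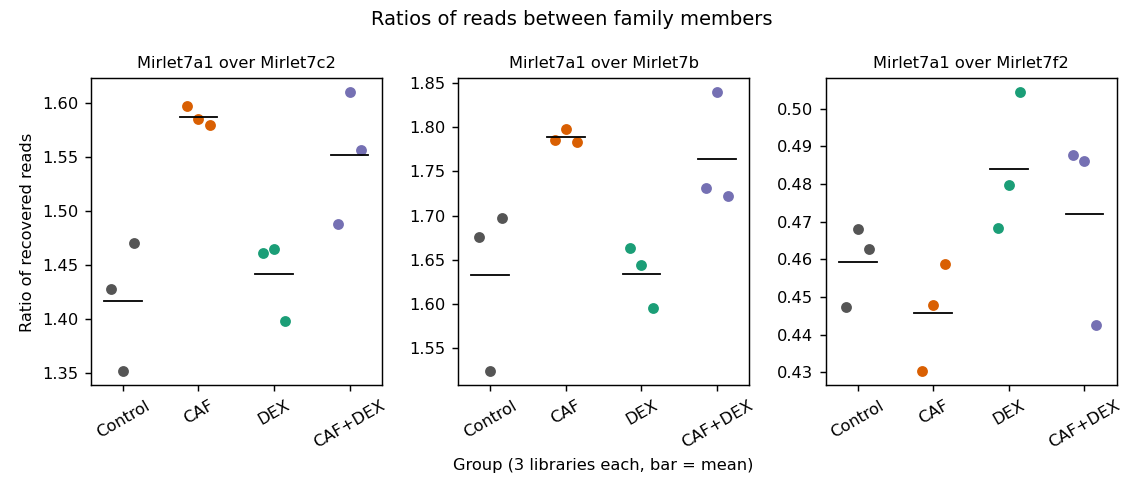
Ratio of recovered reads of Mirlet7a1 to Mirlet7c2, Mirlet7b and Mirlet7f2 (y axes, not starting at 0) in each library by group, with bars at means of 3 libraries. The first ratio lies at 1.49 to 1.61 in all libraries with caffeine and at 1.35 to 1.47 in all without.

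The interaction compared the effect of dextromethorphan with and without caffeine. No member passed and no feature did (0%), with 0 members and 16 features (5.46%) at an unadjusted p under 0.05 (limma). The largest estimate among the members was that of Mirlet7d, at -0.13 (SE 0.08, interval -0.31 to 0.05). The members' median was -0.05, and it turned to 0.02 without CAF+DEX library 5 and was -0.10, with 0 of 9 higher, without CAF+DEX library 2. The moderated F test for any difference between the 4 groups called no member, with 1 of 293 features called (0.341%). The smallest values belonged to Mirlet7b, Mirlet7c2, Mirlet7d and Mirlet7c1, with limma adjusted p of 0.433, 0.433, 0.434 and 0.434, and Mirlet7b and Mirlet7c2 had an unadjusted p under 0.05, against 33 features (11.3%). Neither had one with Control 4, CAF 1, CAF 2, DEX 2 or DEX 4 left out, or with median centring.

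Across the 12 libraries all pairs of members were positively related, most closely the let-7b and let-7c rows (Pearson's r of log2 values, a description over libraries that share totals and groups). Mirlet7c1 and Mirlet7c2 had r = 0.999, and Mirlet7b had 0.985 with Mirlet7c2 and 0.981 with Mirlet7c1. High values also joined Mirlet7a1 with Mir98 at 0.94, Mirlet7f2 with Mirlet7g at 0.904 and Mirlet7f2 with Mir98 at 0.888. Mirlet7a1 stood between, at 0.861 with Mirlet7f2 and 0.804 with Mirlet7c2, while Mirlet7f2 with Mirlet7c2 had 0.425. The values of Mirlet7d ran from 0.355 to 0.626, the lowest pair being with Mirlet7c1.

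Of the 3 pairs of members that lie close on the genome, Mirlet7c2 and Mirlet7b had 0.985, Mirlet7f2 and Mir98 had 0.888, and Mirlet7a1 and Mirlet7d had 0.575. Mirlet7b had 0.981 with Mirlet7c1, which lies on chromosome 11 and shares reads with Mirlet7c2. Mirlet7a1 and Mir98, on chromosomes 17 and X, had 0.94. After the group means were taken out, the 3 close pairs had 0.975, 0.940 and 0.273, and Mirlet7a1 and Mir98 had 0.980.

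Other features with at least 100 mean reads were set beside the mean of the members over 12 libraries. The 5 most like it were Mir26a-2 (r = 0.864), Mir26a (0.861), Mir146b (0.756), Mir143 (0.721) and Mir499a (0.676). Mir192 had the lowest r of the 126 features compared, -0.936, and their median was -0.005. Mir301a (-0.897) and Mir101-2 (-0.763), named after their values were seen, were the next lowest. Mir26a-2 (chromosome 7, 62821111 to 62821194) and Mir26a (chromosome 8, 118755289 to 118755378) are copies of a microRNA known in insulin signalling of liver and have a shared mature form. Mir26a had 116558 ± 5338 FPKM (SD, n = 3) in Control, 116327 ± 10532 in CAF, 129375 ± 6413 in DEX and 129473 ± 8489 in CAF+DEX. Its log2 difference in DEX against Control was 0.15 (SE 0.08, limma adjusted p = 0.841), with all DEX libraries above all Control libraries. Mir143 is a smooth muscle and stellate cell marker of the list used here. That list of 3 measured markers summed to 2.20 to 2.46% of reads in Control and 2.41 to 2.44% in DEX. The sums ran wider in the other groups, from 1.84 to 2.64% in CAF and from 2.08 to 2.83% in CAF+DEX. The part of this list in the likeness was not tested.

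The microRNAs that neighbour let-7 genes in mammalian genomes, miR-99, miR-100 and miR-125, had 5 rows in the table, of which Mir99a lies beside a member. In DEX against Control 1 of 5 was higher and 4 lower with a median of -0.03, and 0 passed in any comparison. Mir99b had the smallest p there, with -0.07 (SE 0.07). Mir99a was the 1 higher row, with 0.05 (SE 0.06), from 15087 ± 262 FPKM in Control to 15610 ± 135 FPKM in DEX (SD, n = 3), and its groups did not overlap. Mir125a had -0.05 (SE 0.09). In CAF Mir99a had a mean of 14852 ± 772 FPKM, just below the lowest Control library at 14866 FPKM, with overlapping groups and a log2 difference from Control of -0.02 (SE 0.06), where its neighbour Mirlet7c1 had the lower mean of 136091 ± 9434.5 FPKM against 151322 ± 8407 FPKM.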

How the data were processed

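Small RNA libraries came from a QIAseq kit with molecular indices in the reverse transcription primer, per the labels' protocols. The sources used here do not say whether these were collapsed. The submitters' processing notes name cutadapt 3.7, STAR 2.7.11b, featureCounts of Subread 2.0.6 and build rn7, without parameters. The authors deposited FPKM values, whose recovered totals are the reads on the 444 listed features. The feature lengths behind them are those the authors deposited in the table. A column header gives a group and a number that no sample title shares, so library numbers are only names. Reads were recovered as the smallest total per library that made each FPKM times length a multiple of 0.01 read, within 2.6e-09 read.

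The 293 features above 0 in at least 3 of 12 libraries were tested on log2(FPKM + 3.8), with a pseudocount of 3.8 FPKM, the 10th percentile of all nonzero values. A difference on this scale understates the change of rare features. One limma-trend model (limma 3.58.1, R 4.3.3) held all 12 libraries and 4 group means. P-values were Benjamini-Hochberg adjusted over the 293 features, with a threshold of 0.05. The test was run on simulated data in which only less abundant features were changed, by larger folds than any member showed here. The simulated spread was drawn separately for each feature. It thus does not cover most members, which are more abundant and related to each other. Members, lists and the rule for named genes were chosen with earlier results of these data known. That rule took all family rows, the miR-99, miR-100 and miR-125 rows (the 3 with the smallest p in DEX against Control given), the 5 other features most like the members, and Mir192, Mir142 and Mir146a where a check needs them. The lists of endothelial, biliary, and neuron and pancreas markers had 1, 3 and 1 tested members. Their medians in DEX against Control were -0.50, 0.22 and 0.00, with 0 called. The 1 endothelial row was near the floor, at 0.00047 to 0.00058% of reads in Control and 0.00024 to 0.00053% in DEX. Settings tried as alternatives were other pseudocounts, filters and scalings, limma-voom on the recovered reads, fits of only the groups compared, summed copies and each library left out. Sequences are those of RefSeq on GRCr8, matched by symbol and strand, and no GRCr8 position is given.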

Additional observations from a re-analysis of the deposited data

How the results depend on the processing

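In none of the alternatives run did a member pass the threshold in any of the 8 contrasts or the F test, and the smallest limma adjusted p of a member was 0.151, in the caffeine main effect. With 3 libraries per group, the precision is limited by the spread between libraries and not by reads. Leaving out each library in turn moved the family's median log2 difference between 0.08 and 0.15 in DEX against Control, between -0.04 and 0.10 in CAF+DEX against Control (-0.0446 without CAF+DEX library 2, 0.103 without CAF+DEX library 5) and between -0.163 and -0.0203 in CAF+DEX against DEX, both ends again without these libraries; the cause was not tested. The median ran from -0.03 to 0.06 in CAF against Control, from 0.03 (without CAF+DEX library 2) to 0.13 (without CAF+DEX library 5) in CAF+DEX against CAF, from -0.10 to 0.02 in the interaction and from -0.08 to 0.01 in the caffeine main effect (each without the same 2 libraries), and from 0.09 to 0.13 in the dextromethorphan main effect. Summing copies by any shared arm joined Mirlet7a1, Mirlet7c1 and Mirlet7c2 into 1 of 7 features, with a median of 0.13 in DEX against Control. The ranks by level were the same when each library was left out and when reads replaced FPKM. No paired analysis was possible because the numbers in the column headers could not be matched to the numbered samples.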
